A study of Homo sapiens with 9 samples.

Results

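The LMO3 locus on chromosome 12 was examined in 5 lists of transcription factor binding sites from lung adenocarcinoma cell lines. Its members were all peaks that touch chr12:16450000-16800000 in the human genome build hg18, a stretch of 350 kb in band 12p12.3. The gene was taken to run from about 16.593 to 16.654 Mb on the minus strand, with its start near 16.654 Mb, so positions above 16.654 Mb lie upstream of it. These bounds are approximate, written to 1 kb, and were not checked against an annotation of hg18. Distances from the start are therefore approximate, with an error that is not known. The window held 37 of the 125904 peaks of the series. The lines were NCI-H3122, NCI-H1819 and NCI-H2087, each described by the submitters as carrying an amplified NKX2-1 gene, and the labels name no treatment. Chromatin immunoprecipitation and sequencing (ChIP-seq) used one NKX2-1 antibody in all 3 lines and a FOXA1 antibody in H3122. NKX2-1 had 2 lists in H3122, called replicates 1 and 2 here, and 1 list each in H1819 and H2087, and FOXA1 had 1 list. A line without the amplification was not included, inputs were not analysed here, and expression of LMO3 was not measured, so nothing below speaks to its transcription.

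LMO3 belongs to the LIM-only proteins, small nuclear proteins built of LIM domains that bind other proteins and not DNA, and that act as scaffolds in transcription complexes. It is known as a candidate oncogene in neuroblastoma and as a reported target of NKX2-1 in lung adenocarcinoma. NKX2-1 is the homeodomain factor that specifies lung and thyroid epithelium, and FOXA1 is a forkhead factor that can open closed chromatin and often binds beside lineage factors in endodermal tissue. In the RefSeq annotation of build GRCh38 the span of MGST1, a microsomal glutathione transferase, overlaps LMO3, and the next protein-coding gene on the upstream side is RERGL. A peak inside LMO3 therefore cannot be tied to 1 of these genes by position alone. Exons and introns of hg18 were not used here.

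Each list had a peak within 5 kb of the start used here. The share of other gene starts with such a peak was not determined, so this does not set LMO3 apart. RefSeq lists 5 start sites for LMO3 (gene ID 55885), spread over 2835 bp. The 250 bases before 2 of these starts are shown, all on the minus strand of GRCh38.p14 and written 5′ to 3′. The first belongs to the start farthest upstream, chr12:16608215-16608464. The second, chr12:16606163-16606412, precedes the third start, 2052 bp farther into the gene, and is the one that holds a match to a searched motif, in capitals.
LMO3 start 1: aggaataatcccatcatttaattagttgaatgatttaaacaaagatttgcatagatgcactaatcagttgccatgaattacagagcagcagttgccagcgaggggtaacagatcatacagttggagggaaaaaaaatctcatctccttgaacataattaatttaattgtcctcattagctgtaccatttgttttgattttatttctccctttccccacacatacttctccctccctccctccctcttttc
LMO3 start 3: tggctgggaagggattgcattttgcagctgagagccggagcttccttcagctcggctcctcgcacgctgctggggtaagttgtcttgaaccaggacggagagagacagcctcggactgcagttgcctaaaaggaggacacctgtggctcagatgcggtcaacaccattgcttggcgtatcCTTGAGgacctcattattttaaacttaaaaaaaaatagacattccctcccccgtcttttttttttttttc

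The letters CTCAAG and CACTTGA, which resemble NKX2-1 motifs, and TGTTTAC and TGTTTGC, which resemble forkhead motifs, were searched on both strands. CTCAAG and the reverse of CACTTGA share the letters TCAAG and can overlap. CTCAAG occurred in 1 of the 5 LMO3 windows, on the opposite strand and ending 65 bases before the third start, against 10.4% of all 35116 windows of this length in RefSeq. The other strings matched none of the 5 LMO3 windows, while CACTTGA was in 2.06%, TGTTTAC in 2.98% and TGTTTGC in 3.23% of all windows. A letter match describes the sequence and is not a binding site, and the lack of one says nothing about the factor. The peaks are placed in hg18 and these windows in GRCh38, so which of the 5 starts a peak covers was not determined here.

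Every NKX2-1 list and the FOXA1 list had peaks in the LMO3 window. NKX2-1 had 3 and 13 peaks in H3122 replicates 1 and 2, 5 in H1819 and 8 in H2087. FOXA1 had 8 peaks in H3122. These numbers cannot be read as amounts of binding, because the whole lists held 7469, 48071, 13486, 14441 and 42437 peaks and their depth is not known. When each list was cut to its best-scoring peaks, as many as the shortest list holds, the window kept 3, 4, 4, 4 and 2 peaks in the same order. The deposited peak score was taken to be −10 times log10 of the peak's p-value, which is how the peak caller writes it, although the labels do not say so. It is the authors' own value and is used below only to rank peaks within a list. The lowest score of a whole list was 50 in H3122 replicate 1 and about 60 in the others.

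**Figure D1:**
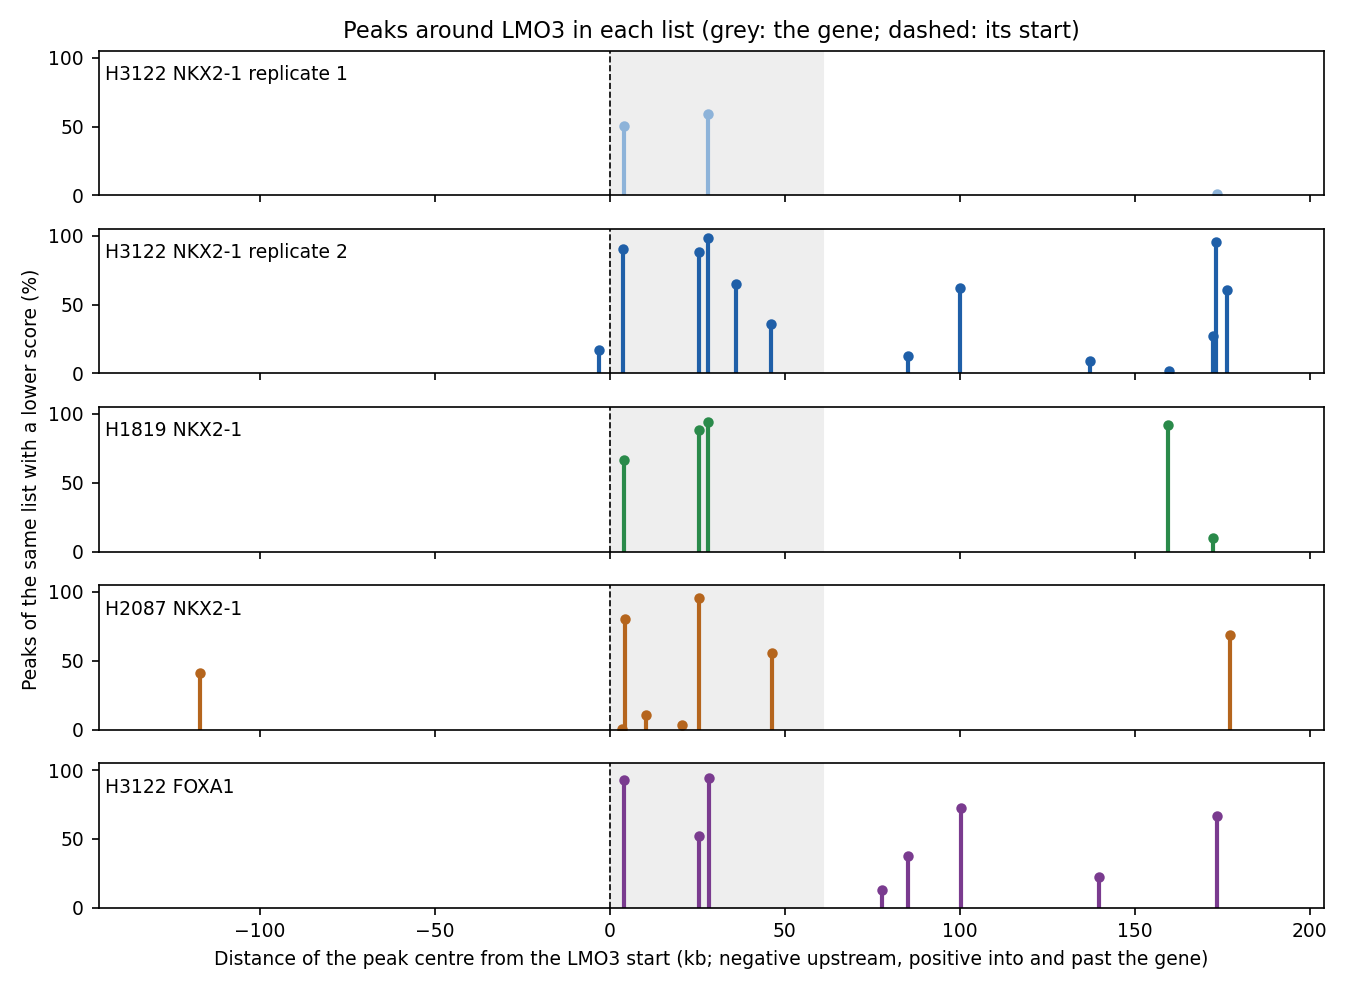
Peaks around LMO3 in the 5 lists. The horizontal axis gives the distance of the peak centre from the start in kb (negative upstream), the height of a line gives the percentage of peaks of the same list with a lower score, grey marks the gene and the dashed line its start. Peaks of all 5 lists stand about 4 kb inside the gene, and the upstream flank holds 1 peak of H3122 replicate 2, about 3 kb from the start, and 1 of H2087, about 117 kb from it.

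The NKX2-1 peaks merged into 17 separate regions. Of these, 2 had peaks in all 3 lines, both inside the gene, against 4.61% of the 59685 merged NKX2-1 regions of the genome. The region about 4 kb inside the gene was the only one with a peak in each of the 4 NKX2-1 lists, a class that held 1.61% of regions genome-wide. It also had a FOXA1 peak, and regions with both, that is peaks in all 4 NKX2-1 lists and FOXA1, made up 0.898% of all regions. Among the 8790 windows of 350 kb that tile the genome, 5.44% held at least 1 such region. The region about 26 kb inside the gene had peaks in H3122 replicate 2, H1819 and H2087 and none in H3122 replicate 1. The number of regions in all 3 lines thus fell to 1 without H3122 replicate 2, and to 1 when both H3122 lists were required. Another 3 regions were shared by H3122 and H1819 only, and 1 by H3122 and H2087 only, against 7.16% and 11.1% of all regions. H3122 alone had 7 regions (59.4% of all regions), H2087 alone had 4 (7.27%), and H1819 alone had 0 (10%).

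**Figure D2:**
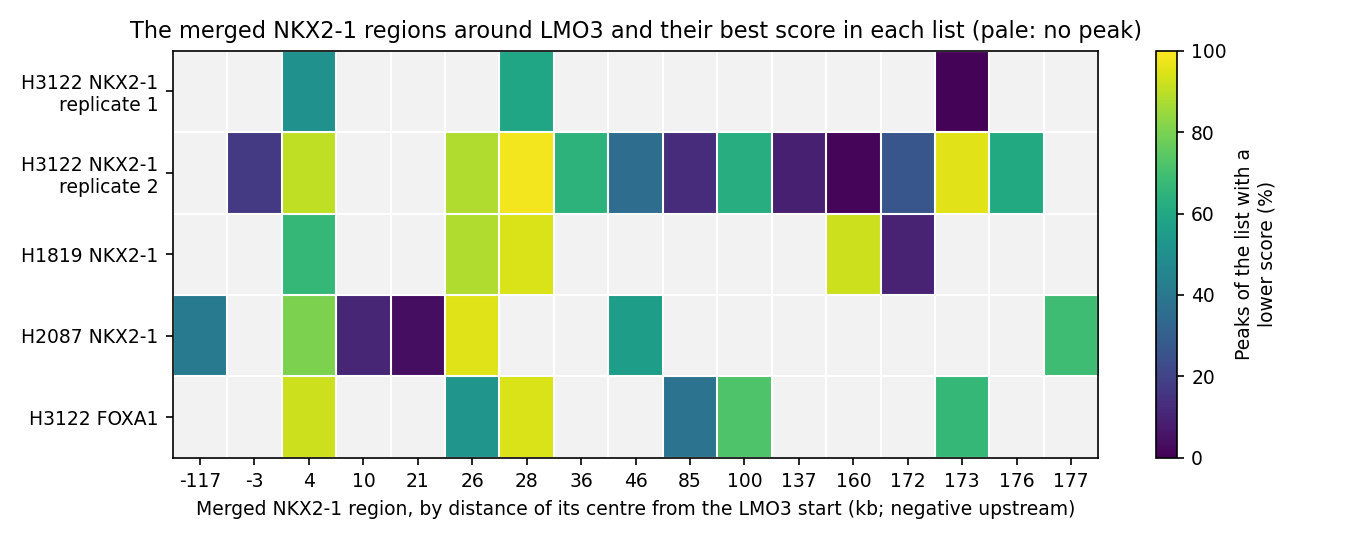
The 17 merged NKX2-1 regions around LMO3 in columns, labelled by the distance of their centre from the start in kb (negative upstream), and the 5 lists in rows. Colour gives the percentage of the list's peaks with a score below the best peak in the region, and pale cells have no peak. Of the 17 columns, only that at 4 kb is filled in all 5 lists, and those at 26 and 28 kb are filled in 4 each.

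Near the start, each list had a peak in the same place, about 4 kb inside the gene, on chr12:16649100-16650857. Its scores were 73.7 and 546 in H3122 replicates 1 and 2, 180.5 in H1819 and 390.3 in H2087 for NKX2-1, and 793 for FOXA1 in H3122. Within their own lists these peaks stood above 50.4%, 90.4%, 66.6%, 80.3% and 92.5% of peaks. The peak thus ranked in the top 10% of scores in H3122 replicate 2 and for FOXA1, and close to the middle of the list in H3122 replicate 1. H2087 had a further small peak at its upstream edge, chr12:16650397-16650725, with a score of 60.4, close to the lowest of its list. A stretch of 301 bp, chr12:16649860-16650160, was covered in all 5 lists and equals the whole peak of H3122 replicate 1. The centres of the best peak of each list lay within 482 bp of each other.

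On the upstream side of the start, NKX2-1 in H3122 replicate 2 had 1 weak peak about 3 kb away, chr12:16656691-16657338, with a score of 76.55. It had no counterpart in H3122 replicate 1, H1819 or H2087 and no FOXA1 peak. Within 5 kb of the start NKX2-1 thus had 1 and 2 peaks in H3122, 1 in H1819 and 2 in H2087. FOXA1 had 1. The same numbers were found within 10 kb. Within 2 kb of the start used here no list had a peak, so what is called near the start depends on this distance. It also depends on which of the RefSeq starts is meant. These spread over 2835 bp and were not placed on hg18, so another start may lie closer to the shared peak. The data therefore do not show that binding was absent within 2 kb of every LMO3 start.

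The best-scoring NKX2-1 peak of the window lay about 28 kb inside the gene in both H3122 lists and in H1819, on chr12:16625469-16626118. There NKX2-1 scored 79.6 and 1435 in H3122 replicates 1 and 2 and 675 in H1819, above 58.9%, 98.4% and 94.4% of the peaks of these lists. FOXA1 also had its best peak of the window there, with a score of 928, above 94.2% of its list. H2087 had no peak in this region. The 4 lists with a peak shared 360 bp, chr12:16625638-16625997, and their centres lay within 71.5 bp of each other, the closest of the 3 shared gene regions described here.

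The best NKX2-1 peak of H2087 lay in the adjacent region about 26 kb inside the gene, chr12:16627814-16629065, 1695 bp from the region at 28 kb, on the side of the start. It scored 1098 in H2087, above 95.3% of that list. NKX2-1 also had peaks there in H3122 replicate 2, with a score of 472, and in H1819, with a score of 412, above 88.0% and 88.2% of peaks. FOXA1 scored 146, above 52.1% of its list. The 4 lists with a peak shared 673 bp, chr12:16628219-16628891, which is the whole FOXA1 peak. The order of these neighbouring regions thus differed between lines. H3122 replicate 2 and H1819 had the higher score at 28 kb, while H2087 had a peak at 26 kb alone. With 1 list in H2087 and 1 in H1819 the difference between lines could not be tested.

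**Figure D3:**
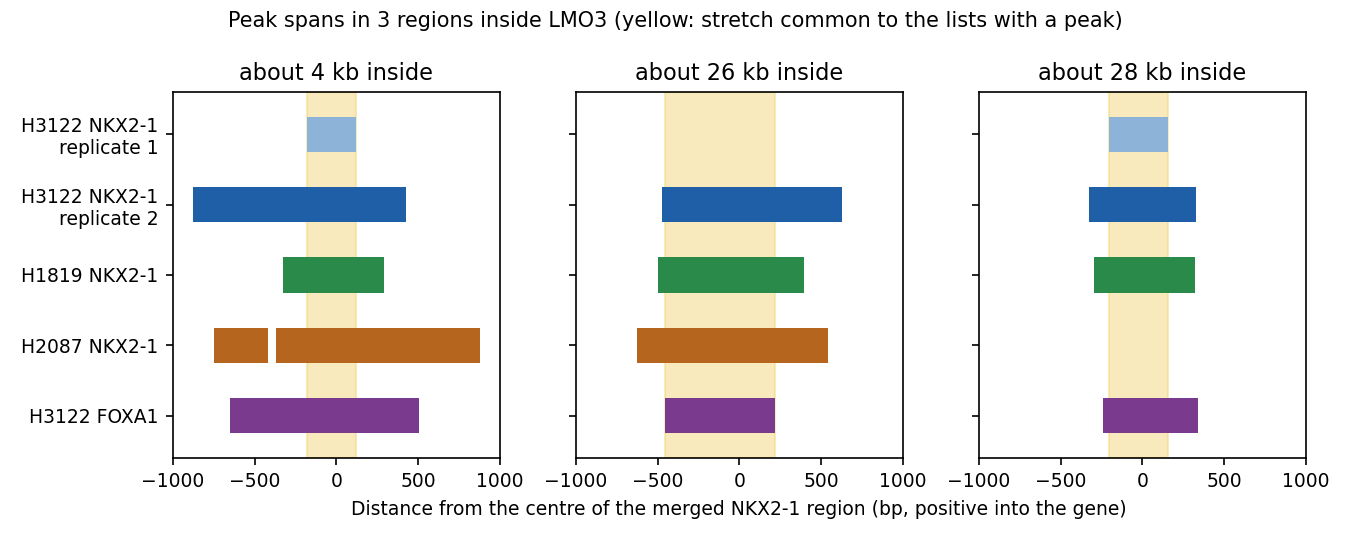
Span of each peak in the regions about 4, 26 and 28 kb inside LMO3, in bp from the centre of the merged NKX2-1 region, with 1 row per list and positive distances farther into the gene. Yellow marks the stretch common to the lists with a peak, using the best peak of each list, of 301, 673 and 360 bp. H3122 replicate 1 has no bar at 26 kb and H2087 none at 28 kb.

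The rest of the gene held weaker peaks. About 46 kb inside, H3122 replicate 2 and H2087 had overlapping NKX2-1 peaks with scores of 104 and 173. About 36 kb inside, H3122 replicate 2 alone had a peak with a score of 195. H2087 alone had peaks about 21 and 10 kb inside, with scores of 62.1 and 68.1, both near the lowest score of its list. FOXA1 had no peak at any of these 4 places.

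Past the gene's end, the downstream flank of 143 kb held 1 and 7 NKX2-1 peaks in H3122, 2 in H1819 and 1 in H2087. FOXA1 had 5 peaks there. A cluster of regions about 172 to 177 kb from the start had peaks in all 5 lists, but no single region of it did. The strongest NKX2-1 peak of the flank in H3122 replicate 2, chr12:16480231-16481038, had a score of 864, above 95.6% of its list, and overlapped a FOXA1 peak with a score of 219. In replicate 1 the peak at this place scored 50.8, just above the lowest of its list, and neither H1819 nor H2087 had one. A separate region 323 bp farther towards the gene had low peaks in H3122 replicate 2 and H1819, with scores of 89.1 and 66.5. On the far side of the cluster, H2087 had a peak with a score of 254 and H3122 replicate 2 one with a score of 177, which did not overlap. About 160 kb from the start, H1819 had its second-best peak of the window, chr12:16493871-16494935, with a score of 539.95, above 92.3% of its list. In H3122 replicate 2 the peak at this place scored 61.05, and H2087 had none.

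The upstream flank of 146 kb held 1 NKX2-1 peak of H3122 replicate 2, the one about 3 kb from the start, and 1 of H2087 with a score of 121, about 117 kb away. H3122 replicate 1, H1819 and FOXA1 had 0 peaks there. A stretch of this length held on average 0.354 and 2.28 NKX2-1 peaks in H3122 replicates 1 and 2, 0.639 in H1819 and 0.684 in H2087. The mean for FOXA1 was 2.01. For H3122 replicate 1 and H1819 the mean itself was thus below 1 peak, and the single H2087 peak lay above its mean. A stretch of 114 kb, chr12:16657339-16770892, had no peak in any list and was the longest such stretch of the window. Per 100 kb, the gene held 3.28 and 8.20 NKX2-1 peaks in H3122, 4.92 in H1819 and 9.84 in H2087, the upstream flank 0, 0.685, 0 and 0.685, and the downstream flank 0.699, 4.90, 1.4 and 0.699. For FOXA1 the gene held 4.92 peaks per 100 kb, the upstream flank 0 and the downstream flank 3.50.

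FOXA1 and NKX2-1 shared most of the FOXA1 places of the locus in H3122. Of the 8 FOXA1 peaks, 6 overlapped an H3122 NKX2-1 peak, against 54.7% of all FOXA1 peaks. These were the regions at 4, 26 and 28 kb inside the gene and those at 85, 100 and 173 kb on the downstream side. The pairs at 85 and 100 kb had NKX2-1 in H3122 replicate 2 only, with NKX2-1 scores of 71.1 and 184 and FOXA1 scores of 107 and 268. The other 2 FOXA1 peaks, about 78 and 140 kb from the start, had scores of 70.2 and 81.15 and no NKX2-1 peak in any line. In the other direction, 3 of 3 NKX2-1 peaks of H3122 replicate 1 and 6 of 13 of replicate 2 overlapped FOXA1, against 50.3% and 47.8% of the whole lists. For peaks of the other lines on an H3122 FOXA1 peak, the counts were 3 of 5 in H1819 and 3 of 8 in H2087, against 28.7% and 31.6%. The H2087 count includes both peaks of the region at 4 kb. Of the 17 merged NKX2-1 regions, 6 had FOXA1, a share near the 39.7% of all regions. FOXA1 was in both regions found in all 3 lines, against 44.3% of such regions genome-wide. With counts this small, these shares do not set the locus apart from its background.

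The lines were also compared peak by peak. All 3 peaks of H3122 replicate 1 were found in replicate 2, against 81.7% of its whole list, while 3 of 13 replicate 2 peaks were found in replicate 1, against 12.5%. H1819 shared 2 of the 3 replicate 1 peaks (25.4% of that list) and H2087 shared 1 of them (29.9%). Of the 13 replicate 2 peaks, H1819 shared 5 (14.7% of that list) and H2087 shared 3 (20%). All 5 H1819 peaks overlapped a peak of H3122 replicate 2, against 53.4% of the H1819 list. Of the 8 H2087 peaks, 4 did, against 67.7% of the H2087 list, and 2 of these lay in the single region at 4 kb. Between H1819 and H2087, 2 of 5 H1819 peaks were shared, against 22.8%, and 2 of 8 H2087 peaks, against 21%.

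The window held more peaks than the mean of each list over the same length. Its density was 3.54 (95% interval 0.729 to 10.3) and 2.38 (1.27 to 4.07) times the list mean for NKX2-1 in H3122 replicates 1 and 2. It was 3.26 (1.06 to 7.61) times the mean in H1819, 4.88 (2.11 to 9.61) times in H2087, and 1.66 (0.716 to 3.27) times for FOXA1. The intervals are exact binomial ones that treat the peaks of a list as independent and cover counting error only. Those of H3122 replicate 1 and FOXA1 include 1. Peaks are unevenly spread, however: 53.3% of the windows held no H2087 peak, at a mean of 1.64 per window. The intervals may therefore be too narrow, and they are not a test against 1. As many peaks or more were found in 9.65%, 9.84%, 9.49%, 4.58% and 23.1% of the 8790 windows. The density of FOXA1 against the mean of band 12p12.3 alone was 0.851, below 1, and those of the NKX2-1 lists were 2.30, 1.42, 2.28 and 4.32. This comparison with the band was added after the data had been seen. The locus itself was chosen with earlier results of these data known, so its densities and shares are description only.

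**Figure D4:**
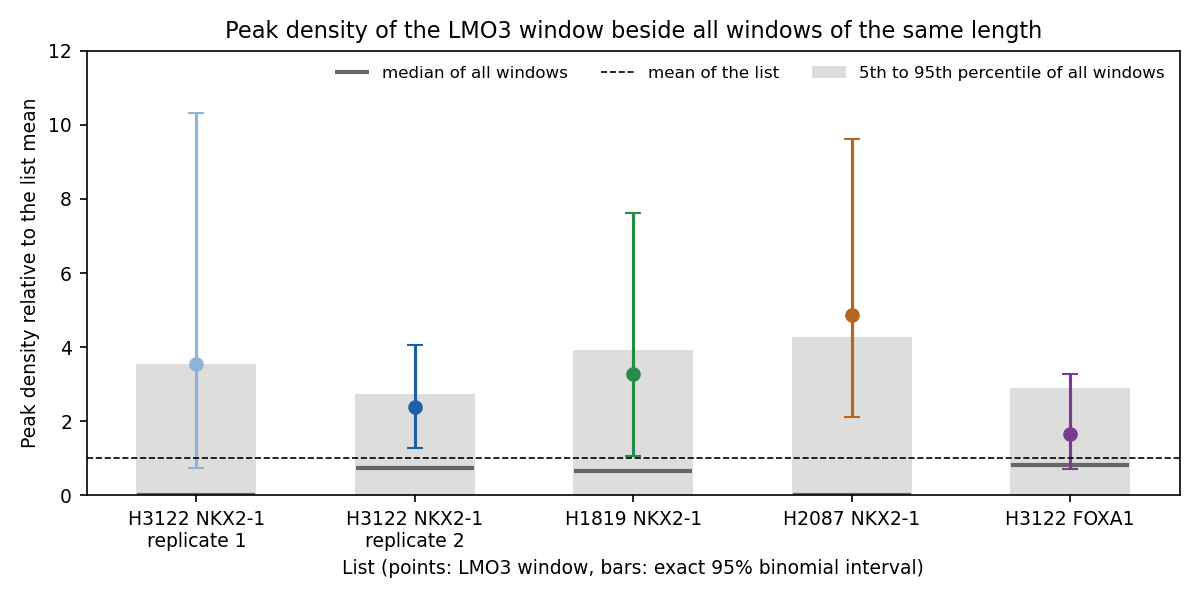
Peak density of the LMO3 window relative to the list mean (points, with exact 95% binomial intervals) for the 5 lists. Grey bars span the 5th to 95th percentile of all 350 kb windows of the genome, lines mark their median and the dashed line the list mean. The H2087 point, at 4.88, lies above the grey bar, and the other points lie within theirs or at its edge.

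In each list the density was higher over the gene than over the whole window, with intervals that overlap. Over its 61 kb, NKX2-1 density was 13.5 (1.64 to 48.8) and 5.25 (1.71 to 12.3) times the mean in H3122, 11.2 (2.32 to 32.8) times in H1819 and 21.0 (7.70 to 45.7) times in H2087. FOXA1 density was 3.57 (0.736 to 10.4) times the mean. As many peaks or more were seen in 2.08%, 3.45%, 1.99% and 0.232% of 50486 stretches of this length for NKX2-1, and in 10.3% for FOXA1. The means and stretches, here and for the window, run over whole chromosome lengths and were not limited to genes. Of the 61 kb stretches, 87.7%, 54.3%, 81.9% and 83.0% held no peak of the NKX2-1 lists in the same order. Other genes were not compared, so these ratios do not show that LMO3 differs from other genes with peaks. The 6 H2087 peaks behind the last NKX2-1 share include the adjoining pair at 4 kb and 2 others near the lowest score of the list. Copy number of the locus was not measured, and its part in these densities was not tested.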

How the data were processed

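Per the submitters' processing notes, Bowtie aligned the reads to hg18 and MACS 1.4.0 called the peaks. The deposited lists hold 1 library each and give position and score per peak. For read depth, calling thresholds and the control of each list, no value is given in the sources used here. The labels do not state whether the H3122 replicates came from different cultures, and they may differ for technical reasons.

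Positions were converted to 1-based. Peaks counted as shared when they overlapped by at least 1 bp, and NKX2-1 peaks were merged on the same rule. H3122 counted as bound where either list had a peak. Densities used chromosome lengths and bands of hg18 from circlize 0.4.16 in R 4.3.3. Other steps used Python 3.11.15, pandas 2.3.3, numpy 2.4.6, scipy 1.17.1 and matplotlib 3.10.9. The overlap code was checked on simulated intervals. Genome-wide shares are given as background, and no test was made, since peaks are not replicates. Regions in all 3 lines, the best peak of each list and all peaks within 10 kb of the start are given with their values. Most other peaks are given more briefly. The locus, the start and the lists were chosen with earlier results of these data known. Promoter sequences came from RefSeq, which matched LMO3 by symbol. Alternatives changed the score minimum, list length, overlap rule, distance from the start and the H3122 lists used.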

Additional observations from a re-analysis of the deposited data

How the results depend on the processing

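Of 54 alternatives over 18 results, 38 left the value within 1.5 times of it or within its interval and 16 moved it. With scores of at least 100, the window held 0 and 8 NKX2-1 peaks in H3122 replicates 1 and 2 and 5 in H2087, the merged NKX2-1 regions numbered 11, and the density of H3122 replicate 1 was 0. With the best-scoring peaks only, as many as in the shortest list, there were 4 NKX2-1 peaks in H3122 replicate 2, 4 in H2087 and 2 for FOXA1, and the density of H3122 replicate 2 was 4.71 times the mean. Within 2 kb of the start used here all 5 lists had 0 peaks. Regions in all 3 lines numbered 1 when both H3122 lists were required. Leaving out 1 H3122 list at a time gave 1 to 2 regions in all 3 lines and 5 to 6 regions with FOXA1. Without replicate 2 the FOXA1 places at 85 and 100 kb had no NKX2-1 peak. The 5 regions then counted the place at 4 kb as 2, because the 2 H2087 peaks there no longer merged. The density intervals are wide, so staying within them says little about stability. The number of H3122 peaks rests mainly on replicate 2, which held 13 peaks, against 3 in replicate 1. No paired analysis was possible because the labels name no pairs among the libraries with lists, and H1819, H2087 and FOXA1 have 1 list each.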
